A study of Sus scrofa with 7 samples.

Results

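The BCL2 family decides whether mitochondria release the proteins that start cell death, and 10 of its genes were followed here in pig heart muscle: BCL2, BCL2L1 and MCL1, which protect cells, and BAX, BAK1, BID, BCL2L11, BBC3, BNIP3 and BNIP3L, which promote death. They were taken by gene symbol from a deposited table of 20653 genes. All 10 were present and all 10 passed the filter on low values, which kept 15661 genes. Where a gene had several transcript rows, the one of highest mean value across libraries stood for it.

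The tissue was anteromidventricular myocardium of male farm pigs, collected 14 weeks after an infarction made at the left circumflex coronary artery (LCX). All pigs shared the infarction and received AAV5, an adeno-associated virus used to deliver genes. The group labelled S100a1 (4 pigs) received AAV5 with the human gene for S100A1, which binds calcium in cardiomyocytes, and the group labelled hrLuc (3 pigs) received AAV5 with luciferase as a control. No source used here gives the pigs' age, the vector's promoter or how far the tissue lay from the scar.

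BAX and BAK1 form pores in the outer mitochondrial membrane. BCL2, BCL2L1 (the protein Bcl-xL) and MCL1 bind and restrain them, and the BH3-only proteins BID, BCL2L11 (Bim) and BBC3 (Puma) release or activate them. BNIP3 and BNIP3L (Nix) are related proteins of the mitochondrial surface that also mark mitochondria for removal by autophagy, and in heart muscle the balance of these proteins is known for its part in the loss of cells after ischemia.

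The libraries held 28679324 to 38409552 reads with 1 row per gene. Values are normalized read counts, that is, reads divided by 1 size factor per library, in which 1 read was worth 0.824 to 1.14 units. They are not divided by transcript length, so levels are compared between libraries and never between genes. Of 8 cardiomyocyte markers 7 were in the table, and their summed level was 1725205 to 1981196 in hrLuc and 1834214 to 2063745 in S100a1. Within that sum MYH7 alone was at 962373 to 1158838 in hrLuc and 1044389 to 1170228 in S100a1. RYR2 was higher in every S100a1 library, at 210832 to 283260 against 171514 to 204633 (adjusted p = 0.573, limma, and 0.0565, DESeq2). The groups of the other markers overlapped. The pig S100A1 gene was at 6568 to 9125 in hrLuc and 4429 to 6804 in S100a1. Whether reads of the human transgene were counted there is not known, and this gene is therefore no check of the groups. Fold changes are S100a1 over hrLuc on the log2(value + 0.5) scale, with standard errors and two-sided limma tests adjusted by Benjamini-Hochberg over the 15661 genes.

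None of the 10 members passed the threshold of 0.05, where 0.0128% of all genes tested did (limma). The count was also 0 with edgeR (0.0128% of all genes) and with DESeq2 (0.568% of all genes). At an unadjusted p under 0.05 (limma) there was 1 of 10, with S100a1 higher, and 8.26% of all genes lay there, 3.69% with S100a1 higher and 4.57% with S100a1 lower. The 3 pro-survival members all had positive log2 fold changes, with a median of 0.12, and the 7 pro-death members had 3 positive and 4 negative ones, with a median of -0.02, which became 5 and 2 with a median of 0.02 when each library was centred on its median. Over all genes tested the median was -0.02 and 56.5% were negative. Under the same median centring these were 0.02 and 43.6%, and the 3 pro-survival members were again all positive, with a median of 0.17. In bulk tissue, fewer cells of a type and less RNA per cell cannot be told apart.

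**Figure D1:**
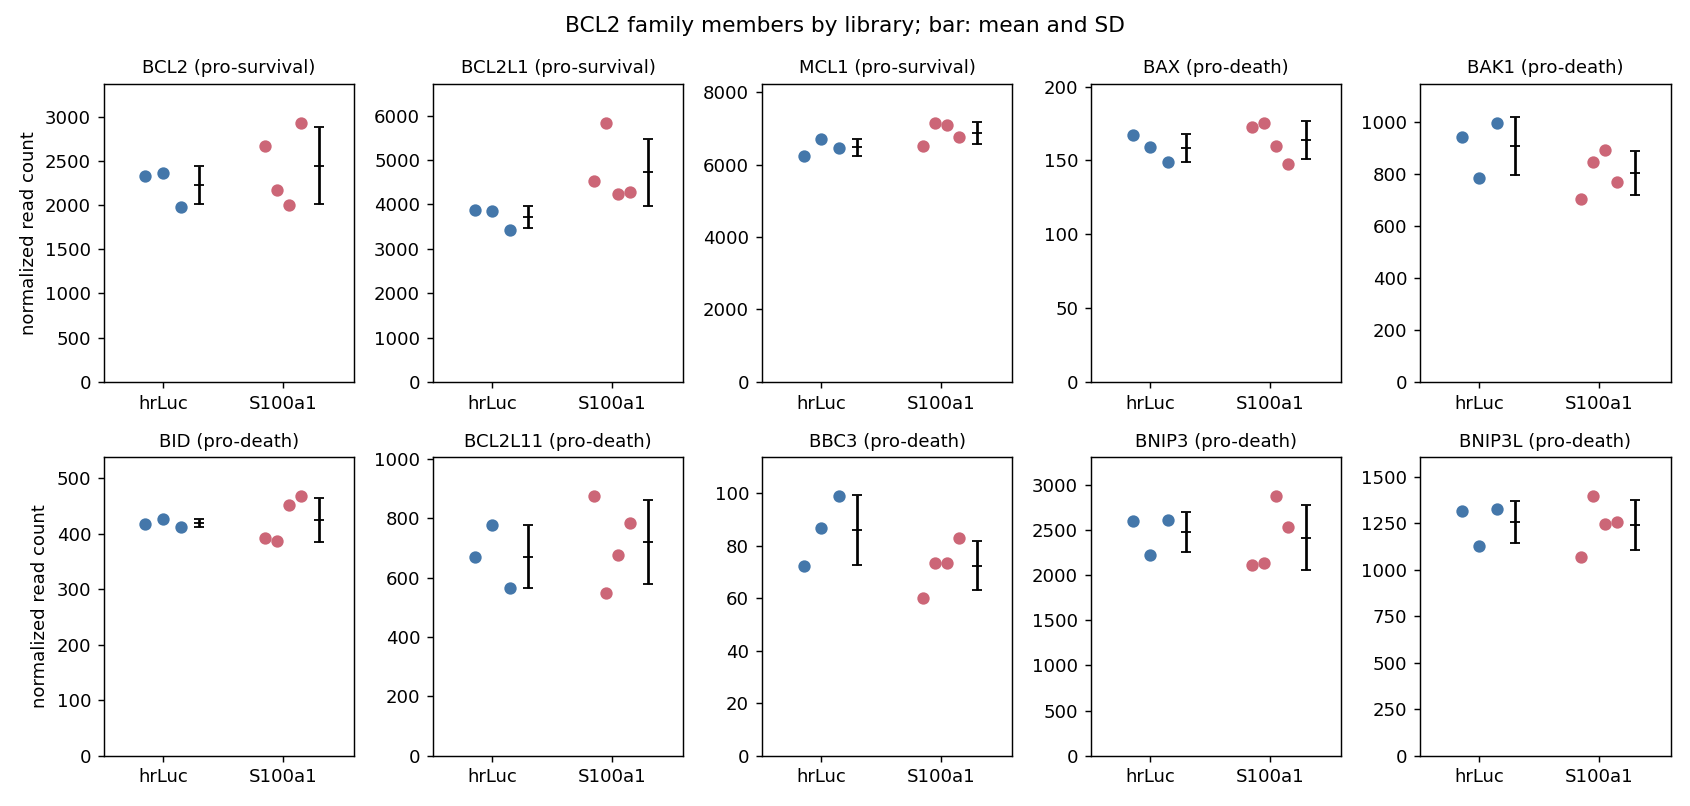
Normalized read count of each member (vertical axes, from 0) in the 3 hrLuc and 4 S100a1 libraries; each point is a library, and the bar gives the mean and SD of its group. BCL2L1 is the 1 panel in which the groups do not overlap.

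BCL2L1 was the member with the smallest p. Its normalized read count was 3870.4, 3854 and 3419.6 in hrLuc replicates 1 to 3, and 4516, 5841, 4230.4 and 4283 in S100a1 replicates 1 to 4. Every S100a1 library lay above every hrLuc library, and S100a1 replicate 2 stood highest. The means were 3715 ± 256 (SD, n = 3) and 4718 ± 759 (SD, n = 4), a log2 fold change of 0.33 ± 0.12. Its 95% interval before adjustment ran from 0.07 to 0.60, or 1.05- to 1.51-fold. The difference did not pass (adjusted p = 0.543, limma), and by unadjusted p the gene ranked 542 among the 15661. The exact two-sided permutation test gave p = 0.0571, where 0.0286 is the smallest p that 3 libraries against 4 allow.

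The size of the fold change of BCL2L1 leaned on 2 libraries. It was 0.23 without S100a1 replicate 2 and 0.28 without hrLuc replicate 3. The unadjusted limma p was 0.0188 with all libraries, 0.0178 without the former and 0.0726 without the latter. S100a1 replicate 2 also had the highest summed level of 5 fat cell markers, at 2396 against 1143 to 1730 in the other 6 libraries. Red cell precursors are known for high Bcl-xL, and the summed level of 6 erythroid markers was 179 to 418 in hrLuc and 161 to 334 in S100a1. The part of either cell type in the BCL2L1 values was not tested. BCL2L1 was the 1 member of 10 whose groups did not overlap. Among all genes tested 9.27% had no overlap, 3.96% with S100a1 higher and 5.31% with S100a1 lower.

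BCL2 itself was at 2330.0, 2366 and 1979 in hrLuc and at 2672, 2172, 1998 and 2933 in S100a1. The groups overlapped, since S100a1 replicates 2 and 3 lay within the hrLuc range and replicates 1 and 4 above it. The S100a1 group differed from hrLuc by 0.12 ± 0.14 on the log2 scale (adjusted p = 0.814, limma), with a 95% interval of 0.88- to 1.35-fold. That difference was 0.03 when S100a1 replicate 4 was left out, 0.04 without hrLuc replicate 3 and 0.21 without S100a1 replicate 3.

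MCL1, a short-lived protein that heart muscle needs for survival, varied least among the members over the 7 libraries. It was at 6244, 6709 and 6469 in hrLuc and at 6517, 7159, 7102 and 6748 in S100a1. S100a1 replicates 2 to 4 lay above all of hrLuc, and replicate 1 lay within its range. The log2 fold change was 0.09 ± 0.06 (adjusted p = 0.719, limma), and the 95% interval of 0.96- to 1.18-fold was the narrowest of the 10.

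**Figure D2:**
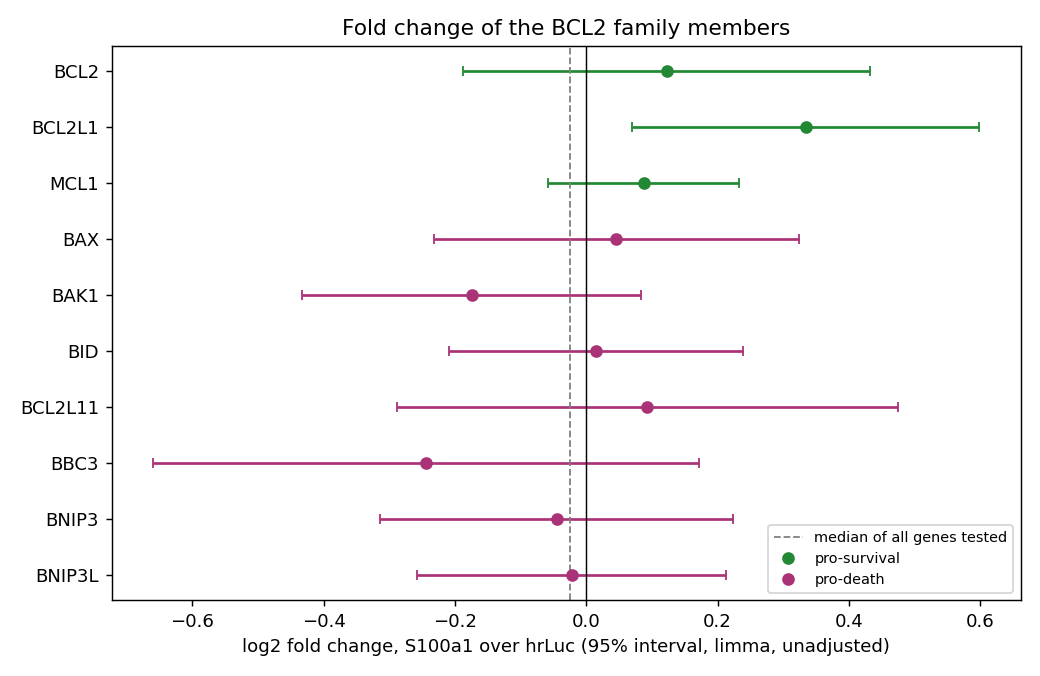
Log2 fold change of each member, S100a1 over hrLuc (horizontal axis), with its 95% interval before adjustment from limma; the dashed line is the median of all genes tested, at -0.02. The interval of BCL2L1, from 0.07 to 0.60, is the 1 that leaves out 0.

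The pore formers BAX and BAK1 gave values on either side of 0. BAX was at 168, 159 and 149 in hrLuc and at 173, 176, 160 and 148 in S100a1, with S100a1 replicates 1 and 2 above the hrLuc range and replicate 4 just below it. Its log2 fold change was 0.05 ± 0.12 (adjusted p = 0.929, limma), with a 95% interval of 0.85- to 1.25-fold. The BAX value ran from 0.0011 without hrLuc replicate 3 to 0.095 without S100a1 replicate 4. BAK1 was at 939, 783 and 996 in hrLuc and at 702, 846, 890.4 and 769 in S100a1. The lowest BAK1 values were those of S100a1 replicates 1 and 4 and the highest those of hrLuc replicates 1 and 3. The log2 fold change of BAK1 was -0.17 ± 0.11 (adjusted p = 0.674, limma), and its 95% interval was 0.74- to 1.06-fold. It was -0.28 without hrLuc replicate 2, -0.11 without S100a1 replicate 1 and -0.10 without hrLuc replicate 3.

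The BH3-only genes did not share a direction. BID, which caspase-8 cuts to pass a death receptor signal to mitochondria, was at 418, 428 and 412 in hrLuc and at 393, 388, 451 and 468 in S100a1. The hrLuc values of BID had a coefficient of variation of 1.85%, while S100a1 lay on both sides of them, with replicates 1 and 2 below and replicates 3 and 4 above. Its log2 fold change was 0.01 ± 0.10 (adjusted p = 0.973, limma), and -0.033 without S100a1 replicate 4.

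BCL2L11, whose product binds all pro-survival members, was at 671, 778 and 565 in hrLuc and at 875, 548, 676 and 784 in S100a1. It had the widest relative spread of the 10 within S100a1, with a coefficient of variation of 19.5%. Its groups overlapped, at 0.09 ± 0.17 on the log2 scale (adjusted p = 0.890, limma), and without hrLuc replicate 3 the value was -0.026. BBC3, a target of p53, was at 72.5, 86.6 and 98.8 in hrLuc and at 60.1, 73.4, 73.3 and 82.9 in S100a1. It had the most negative log2 fold change of the members, -0.24 ± 0.18 (adjusted p = 0.723, limma), with a 95% interval of 0.63- to 1.13-fold. That value was -0.14 without hrLuc replicate 3, -0.16 without S100a1 replicate 1 and -0.36 without hrLuc replicate 1. The table holds a second locus described as like BBC3, LOC110260072, at 263 to 311 in hrLuc and 284 to 325 in S100a1, and how reads common to both were counted is not known.

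The mitophagy pair showed no separation either. BNIP3, which hypoxia is known to induce, was at 2600.1, 2224 and 2609.5 in hrLuc and at 2113, 2138, 2872 and 2536 in S100a1. Its S100a1 libraries formed a low pair, replicates 1 and 2, and a higher pair, and its log2 fold change was -0.05 ± 0.12 (adjusted p = 0.927, limma). BNIP3L was at 1316, 1128 and 1328 in hrLuc and at 1066, 1394, 1243 and 1258 in S100a1. Its log2 fold change was -0.02 ± 0.10 (adjusted p = 0.961, limma), and its 95% interval was 0.84- to 1.16-fold. Both signs of the pair turned under median centring, to 0.0019 for BNIP3 and 0.025 for BNIP3L. The intervals of the 9 members other than BCL2L1 all held 0, so neither a change within them nor its absence is shown.

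Seen by library, S100a1 replicate 1 stood apart in the pro-death genes. It had the lowest value of the 7 libraries for BAK1, BBC3, BNIP3 and BNIP3L and the highest for BCL2L11. The median deviation of the 7 pro-death members from their own means was -0.20 there, against -0.08 to 0.10 in the other 6 libraries (log2). The summed level of 8 fibroblast markers was also lowest in that library, at 84512 against 107111 to 151705, and so were those of the erythroid, macrophage (5487 against 6093 to 9095) and neutrophil markers (56.8 against 59.9 to 82.9). Its cardiomyocyte markers had the highest sum, at 2063745, but the single markers differed. MYH7, ACTN2 and RYR2 were highest in that library, MYBPC3 was lowest there, at 124340, and TNNT2, TNNI3 and MYL2 were neither. The part of these cells in the pro-death values was not tested. Without that library the median log2 fold change of the pro-death members was 0.02.

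Some members shared their highest or lowest libraries, while others ran opposite to each other. BCL2 and BCL2L11 shared their highest libraries, S100a1 replicates 1 and 4, and both lay below their own means in hrLuc replicate 3. BAK1, BNIP3 and BNIP3L lay above their means in hrLuc replicates 1 and 3 and below them in hrLuc replicate 2 and S100a1 replicate 1. BCL2L1, MCL1 and BAX all had their highest value in S100a1 replicate 2. Sharing a library was not varying together throughout: Pearson's r over the 7 libraries (log2) was 0.135 for BAX with MCL1 and 0.365 for BNIP3 with BNIP3L. Among the 45 pairs the r largest in size were negative, at -0.889 for BNIP3L with BCL2L11 and -0.802 for BAK1 with BCL2L11. The highest positive r was 0.762, for BCL2 with BCL2L11.

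**Figure D3:**
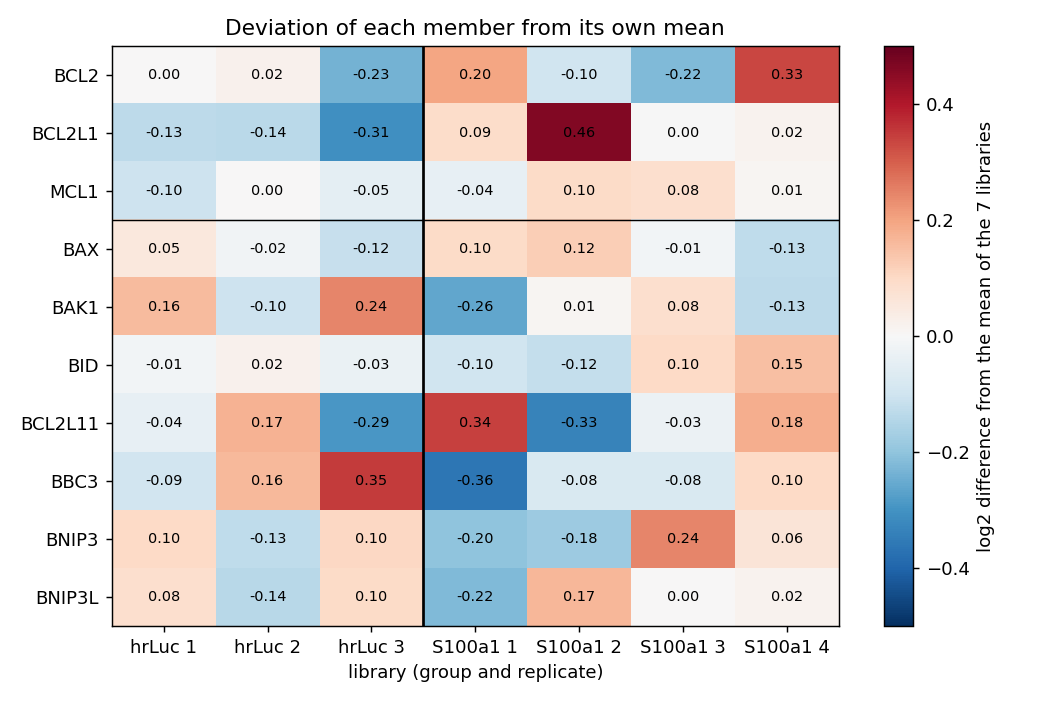
Log2 difference of each member from its own mean over the 7 libraries (colour and printed value), with libraries as columns and members as rows; lines part the groups and the pro-survival from the pro-death genes. S100a1 replicate 1 is lowest for BAK1, BBC3, BNIP3 and BNIP3L, and BCL2L1 is highest in S100a1 replicate 2, at 0.46.

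The ratio of BAX to BCL2, often used as an index of the balance between death and survival, overlapped between the groups and spread more widely in S100a1. It was 0.0719, 0.0673 and 0.0752 in hrLuc and 0.0646, 0.0809, 0.0800 and 0.0503 in S100a1. The 4 S100a1 values reached both below and above the hrLuc values. The difference of the group means was -0.08 on the log2 scale, and it was 0.07 without S100a1 replicate 4. The ratio of BAX to BCL2L1, chosen after the values were seen, was 0.0433, 0.0413 and 0.0435 in hrLuc and 0.0382, 0.0301, 0.0378 and 0.0344 in S100a1. All 4 S100a1 values of this ratio lay below all hrLuc values, where BCL2L1 alone had also separated, and it is given without a test. The ratio of BAK1 to BCL2L1 overlapped, at 0.203 to 0.291 in hrLuc and 0.145 to 0.210 in S100a1. That of BAK1 to MCL1 overlapped too. These ratios compare libraries, since the genes' transcripts differ in length.

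Several members have more than 1 transcript row, 43 rows in all, and the rows of a gene can hold the same reads. BCL2L1 had 12 rows with 4 distinct sets of values, and 7 of the rows, the one used among them, were identical. Its lowest row, the curated RefSeq transcript, held 70.6% to 75.1% of the highest row in hrLuc and 71.9% to 76.2% in S100a1. That row was at 2766, 2721 and 2566 in hrLuc and at 3347, 4197, 3103 and 3262 in S100a1, so here too the groups did not overlap. In the authors' deposited table the log2 fold change of BCL2L1 was 0.34 (adjusted p = 0.262) in the highest row and 0.37 (adjusted p = 0.105) in the lowest.

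The other members' rows showed the same directions in the authors' deposited table. BCL2 had 3 rows, and the lowest held 46.7% to 49.9% of the highest in hrLuc and 48.8% to 52.3% in S100a1. BCL2L11 had 9 rows, of which the lowest, 2 curated transcripts with identical values, held 45.5% to 47.5% in hrLuc and 47.3% to 48.9% in S100a1. For BID the lowest row held 36.6% to 43.7% and 40.3% to 44.2%. In each of these genes the shares of the groups overlapped. Among the rows used, the adjusted p in the authors' deposited table ran from 0.262 for BCL2L1 to 0.985 for BNIP3L, and 0.661% of its genes with an adjusted p lay under 0.05.

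**Figure D4:**
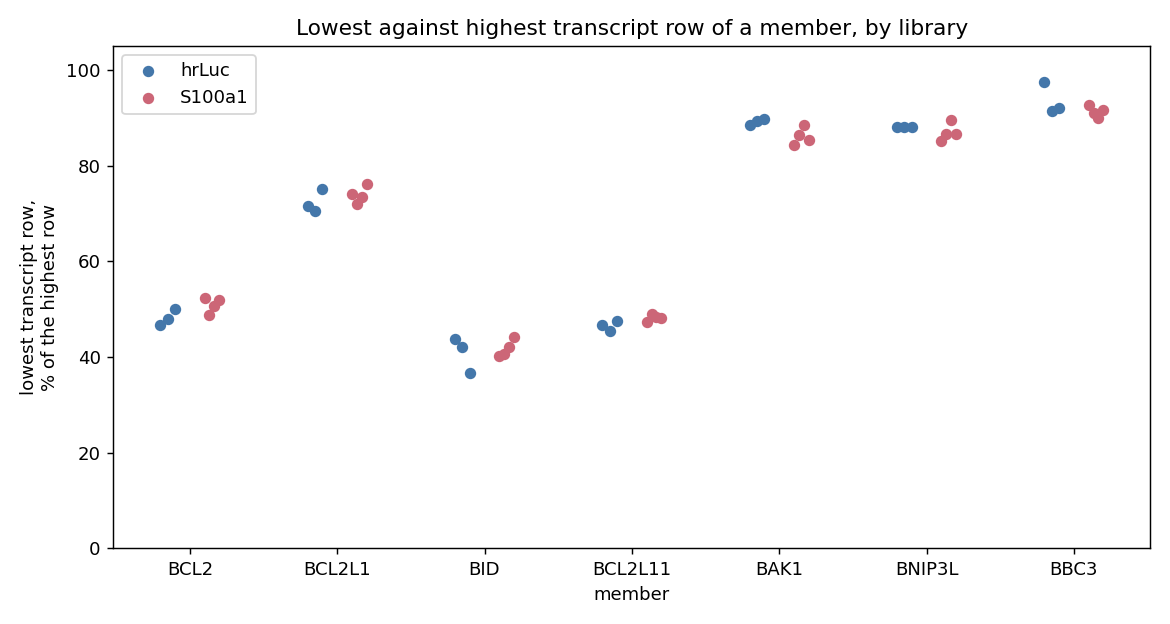
Lowest transcript row of 7 members as a percentage of the highest row of the same gene (vertical axis, from 0), with 1 point per library. The groups overlap for all 7, and BCL2L1 lies between 70.6% and 76.2%.

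The members' loci bear on how their reads can be read. On Sscrofa11.1, BCL2L1 lies on chromosome 17 from 35366139 to 35415798 and BCL2 on chromosome 1 from 158337403 to 158518214. MCL1 lies on chromosome 4 from 98562092 to 98567014. BAX (54222341 to 54228150) and BBC3 (53037103 to 53046902) both lie on chromosome 6, and BNIP3L (10318688 to 10345689) and BNIP3 (140362123 to 140371951) both on chromosome 14. BAK1 is on chromosome 7 from 29808849 to 29815345, BID on chromosome 5 from 69849007 to 69874647, and BCL2L11 on chromosome 3 from 45156791 to 45202996. The spans of 5 members overlap another annotated locus. For BCL2, BCL2L1, BAK1 and BID these are long noncoding RNAs that were not analysed here. BCL2L11 overlaps LOC110260116, counted at 15.6 to 28.9, and, by 122 bases, ACOXL, counted at 35.2 to 118. No source used here says whether the counting used strand, so the share of a member's reads that came from an overlapping stretch is not known.

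The genes around the family were taken from 9 lists of 95 genes, of which 93 were tested. None passed the threshold in limma, edgeR or DESeq2. At an unadjusted p under 0.05 in limma there were 5 of the 93, where 8.26% of all genes tested lay, and 6 of the 93 had no overlap, against 9.27% of all genes, so neither share was above the background. The median log2 fold change was -0.04, with 65 of 93 negative, or 69.9% against 56.5% of all genes tested. Median centring turned this to 42 of 93 negative with a median of 0.01, where 43.6% of all genes were negative. With quantile normalization 62 of 93 were negative (50.7% of all genes), and with edgeR and with DESeq2 56 of 93 (50.3% and 50.8% of all genes). List directions below are therefore also given under median centring where they differ. Over the 93 genes median centring gave the fewest negatives of these scalings. With quantile normalization 9 of 10 mitochondrial partners, 11 of 17 mitophagy and autophagy genes and 5 of 5 inhibitors of apoptosis were negative. The same scaling had 7 of 11 other BCL2 family genes negative, and 7 of 15 hypoxia factors and targets.

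Of 13 other BCL2 family genes 11 were tested, with 3 positive and 8 negative and a median of -0.05, against 6 and 5 with a median of 0.002 under median centring. HRK, a BH3-only gene, had few reads, at 13.2, 3.21 and 3.41 in hrLuc and at 22.9, 16.7, 14.8 and 7.86 in S100a1. Its groups overlapped, and its log2 fold change was 1.37 ± 0.58 (adjusted p = 0.579, limma). BCL2L2, a further pro-survival gene, listed under a placeholder symbol and matched by its description, was lower in all 4 S100a1 libraries, at 541 to 688 against 691 to 744. Its log2 fold change was -0.18 ± 0.10 (adjusted p = 0.638, limma), the opposite sign to those of BCL2, BCL2L1 and MCL1.

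Downstream of the pores, 10 genes of the apoptosome and the caspases had a median log2 fold change of -0.14, with 6 negative, and under median centring again 6 were negative, with a median of -0.10. APAF1, the scaffold on which cytochrome c activates caspase-9, was at 1114, 1215 and 1387 in hrLuc and at 1024, 830.4, 978 and 1041 in S100a1. Every S100a1 value of APAF1 lay below every hrLuc value, with a log2 fold change of -0.35 ± 0.11 and an adjusted p of 0.534 (limma). Of 5 inhibitors of apoptosis, 4 were negative and the median was -0.05 (2 negative and 0.001 under median centring). Those of smallest p had log2 fold changes of -0.36 (BIRC5) and -0.10 (BIRC3).

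All 10 genes of the death receptor pathway had negative log2 fold changes, with a median of -0.14, while 9 were negative with quantile normalization, edgeR or DESeq2 and 8 under median centring. None passed the threshold, with adjusted p from 0.620 for CASP8 to 0.980 for TRADD (limma). CASP8, the caspase that cuts BID, was at 305 to 335 in hrLuc and at 265 to 294 in S100a1, without overlap, and TNFRSF1A, a tumour necrosis factor receptor, had a log2 fold change of -0.17. Immune cells carry many of these genes. The summed level of 8 markers of T and natural killer cells was 479 to 882 in hrLuc and 408 to 522 in S100a1, with 7 of 8 markers negative and a median log2 fold change of -0.80. None of these markers was at 0 in all libraries, and their part in the death receptor values was not tested.

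Mitochondrial partners of the family had a median log2 fold change of -0.04, with 8 of 10 negative (4 of 10 under median centring), and the smallest p were those of PGAM5 (log2 fold change -0.10) and MTCH2, the membrane receptor of cut BID (-0.08). Among 10 regulators of family transcription, 5 were positive and 5 negative. FOXO3, a factor known to drive BCL2L11 and BNIP3, was at 8199, 8902 and 9093 in hrLuc and at 9372, 10909, 9778 and 9924 in S100a1. The groups of FOXO3 did not overlap, with a log2 fold change of 0.19 ± 0.08 and an adjusted p of 0.568 (limma). TRIB3, a stress-induced pseudokinase, had 19.2 to 64.9 in hrLuc and 6.98 to 29.7 in S100a1 (-1.44 on the log2 scale, adjusted p = 0.567, limma).

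Of the 5 genes that control MCL1 and Bim turnover, 3 had positive log2 fold changes, and those of smallest p were FBXW7 with 0.14 and USP9X with -0.07. HUWE1, a ubiquitin ligase of MCL1, was named after its values were seen because its groups did not overlap, at 13142 to 13576 in hrLuc and 12815 to 13069 in S100a1 (log2 fold change -0.05). Of 17 mitophagy and autophagy genes, the partners of BNIP3 and BNIP3L, 11 were negative and the median was -0.02, but 6 were negative under median centring. FUNDC1, another receptor of hypoxic mitophagy, had a log2 fold change of -0.26 and BECN1, which BCL2 binds, one of -0.13 (adjusted p = 0.636 and 0.642, limma).

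Hypoxia factors and targets, the setting in which BNIP3 is induced, had 11 of 15 negative and a median of -0.01, but 4 of 15 negative under median centring. VEGFA, a blood vessel growth factor, was at 6349, 6862 and 6844 in hrLuc and at 8269, 7499, 8006 and 7861 in S100a1. Its groups did not overlap and its log2 fold change was 0.24 ± 0.06 (adjusted p = 0.514, limma). The adjusted p of VEGFA was 0.490 in edgeR and 0.0542 in DESeq2. DDIT4 had a log2 fold change of 0.35 with overlapping groups.

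**Figure D5:**
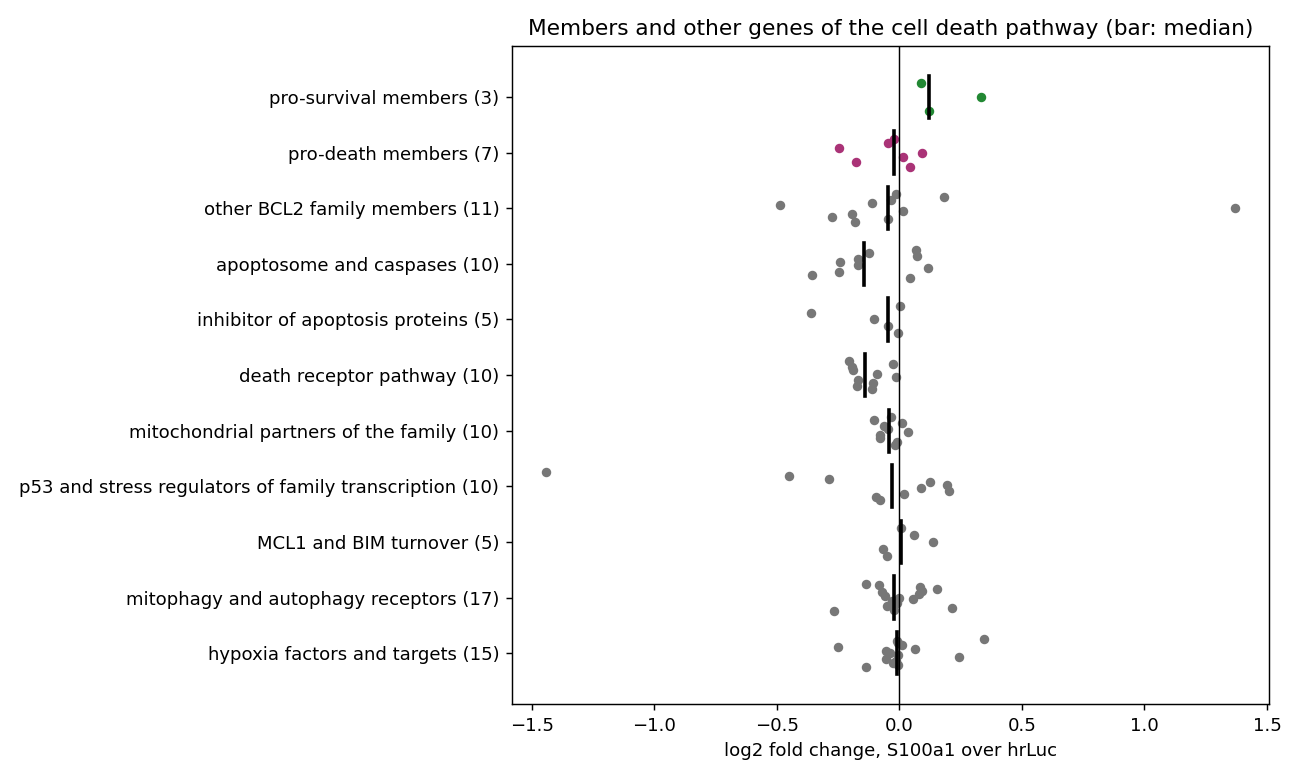
Log2 fold change, S100a1 over hrLuc (horizontal axis), of each tested member and pathway gene by list, with the number tested in brackets; black bars are list medians. The outlying points are HRK at 1.37 and TRIB3 at -1.44, both with few reads.

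The genes whose pattern was most like that of BCL2L1 were LINGO1 (r = 0.972), ETV2 (0.964), TCIM (0.957), LNP1 (0.949) and ANKRD10 (0.941), by Pearson's correlation of log2 values over the 7 libraries. They were picked as the highest of all genes with a symbol and are a description only. In all 5, as in BCL2L1, S100a1 replicate 2 held the highest value, and in LNP1 and ANKRD10 the groups did not overlap. LNP1 was at 695 to 707 in hrLuc and at 799.8 to 1102 in S100a1, and ANKRD10 at 5387 to 5600.1 and 5842 to 6534.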

How the data were processed

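RNA was sequenced from pig myocardium in 7 libraries, made per the labels' protocols with a kit that depletes ribosomal RNA. The authors deposited a normalized signal for each transcript row, its reads scaled by a size factor of the library. In every library 100% of values were whole multiples of 1 read within 0.01, so whole reads were recovered. The deposited log2 and ratio columns are the authors' fold changes, and the deposited p-value column is their adjusted p. The submitters' processing notes name DESeq2 1.33.1, FastQC 0.11.8, R 4.1.2 and the build Sscrofa11.1 without roles. No source used here gives the aligner or the counting mode. All 63562 rows matched RefSeq accessions.

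The filter kept genes that reached 10 normalized counts in 3 or more libraries. Their log2(value + 0.5) was fitted in limma 3.58.1 (R 4.3.3), with no covariate and with the prior variance following the mean. edgeR 4.0.16 and DESeq2 1.42.0 ran on the recovered reads; edgeR called 2 genes and DESeq2 89. Other alternatives were pseudocounts of 1 and 5, a filter of 50 and none, quantile normalization, median centring, the lowest or middle transcript row, a replicate block and each library left out. Replicates differed beyond counting noise (chi-square per degree of freedom 19.7 to 48.0). That each library is a separate pig rests on the titles.

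The members and lists were chosen with earlier results of these data known. Named genes are the 10 members, the 2 of smallest p in each list, and the 5 genes most correlated with the member of smallest p; 1 gene this rule selects is not reported here. BCL2L2 and BIRC2 were matched by description, BIK was not matched and BCL2L10 fell below the filter. Marker lists covered 10 cell types, and those not named in the text overlapped between the groups in summed level, except B and plasma cells (134 to 414 in hrLuc, 112 to 133 in S100a1).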

Additional observations from a re-analysis of the deposited data

Results flagged for a closer look

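In BIRC5, an inhibitor of apoptosis that marks dividing cells, S100a1 replicate 1 was at 20.7 normalized counts, far below the 37.8 to 40.4 of the other 3 S100a1 libraries. Of 32 genes and ratios examined this way 1 stood out, and chance gives about 1 in 20.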

How the results depend on the processing

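No member passed the threshold under any of the 18 alternatives, and BCL2L1, BCL2, MCL1, BAX, BAK1 and BBC3 kept their sign in all. BCL2L1 ran from 0.23 to 0.38 (adjusted p from 0.224 in DESeq2 to 0.927 in limma without hrLuc replicate 1). Members near 0 changed sign: BNIP3 at 0.0019 with median centring, and BNIP3L at 0.025 with median centring, 0.0020 in edgeR and 0.00027 in DESeq2. Median centring shifts the log2 fold change of every gene by the same amount, so values just below 0 turn positive. It moved the median over all genes from -0.024 to 0.023. The cause of the turns in edgeR and DESeq2 was not tested. The fit with the replicate block leaves out S100a1 replicate 4, which has no partner, and gave -0.033 for BID, the same as without that library and no block. With a library left out BCL2L11 ran from -0.026 to 0.22, BID from -0.033 to 0.057, BNIP3 from -0.13 to 0.015 and BNIP3L from -0.099 to 0.048. The pro-survival median then ran from 0.087 to 0.21, and the pro-death median was 0.015 without BNIP3 and BNIP3L. The 2 genes past the threshold in limma became 89 in DESeq2, 1 with median centring and 0 to 3 with a library left out; the count was 0 with the replicate block, and also 0 without S100a1 replicate 4 alone. Under median centring 43.6% of all genes were negative, against 56.5%, and with edgeR 50.3%. Same-numbered libraries did not deviate together (correlations -0.041, -0.017 and 0.031), so the numbers were not taken as pairs. With 3 and 4 animals the intervals above set what could be seen.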
